A study of Mus musculus with 12 samples.

Results

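Genes of the crypt stem cell and of the mesenchymal cells that surround it were followed in mouse colon with and without dextran sulfate sodium (DSS) colitis. The 9 genes were chosen by name, with earlier results of these data known: Ascl2, Axin2 and Prom1 on the epithelial side, and Rspo3, Wnt5a, Grem1, Igfbp4, Igfbp5 and Thy1 on the mesenchymal side. All 9 are among the 912 features that the Control and DSS libraries list, of 991 features over all libraries of the series, and none is among the 8 and 95 features of the decoction libraries. Each group held 3 libraries of colon RNA. Control mice drank distilled water. DSS mice drank 2.5% DSS, which damages the epithelium of the large bowel and brings on colitis, for 5 days and then water for 5 days, in 3 cycles. Strain, sex, age and the day of sampling: not given in the sources used here, nor is it stated that each library came from its own mouse. The p-values therefore set the difference between group means against the spread of these libraries only, and part of that spread may be technical.

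Wnt signalling keeps the stem cells at the crypt base dividing, and R-spondins released by nearby mesenchymal cells strengthen it by keeping Wnt receptors at the cell surface. Bone morphogenetic protein (BMP) signalling pushes cells up the crypt towards differentiation, and BMP antagonists such as gremlin hold it off at the base. Colitis is known to expand fibroblasts of the lamina propria and to disturb the surface epithelium.

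The values are FPKM, the fragments assigned to a gene per kilobase of its length and per 1000000 fragments of the library. Library totals, recovered from the spacing of values of short genes, were 14.4 to 16.7 times 1000000 fragments in Control and 15.4 to 19.2 times 1000000 in DSS. The 912 features are a selection: the smallest difference between group means is 1.87-fold. A test of DSS against Control on features chosen this way is therefore no independent evidence of a difference, and is given below with the values as a description of size and spread. Tests covered the 572 features that reached 1 FPKM in 3 or more libraries, of which 455 were higher and 115 lower in DSS (limma, adjusted p under 0.05), 99.7% of those tested. In 97.4% the groups did not overlap, every library of the higher group exceeding every library of the lower. For 2 libraries the description text names another group than the title: that of Control replicate 3 describes the DSS course and that of DSS replicate 3 the low decoction dose. Groups follow the titles, which the treatment labels match, and the changes of the 9 genes are also given without these 2 libraries. Among 16 markers of colon epithelium 2 were listed, Car4 and Slc26a3, at 589 to 852 and 153 to 233 FPKM in Control.

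The sequence before the start of a gene is shown for the 2 genes that were lower in DSS and for the 2 with the largest rises, so that these oppositely moving genes can be read side by side. Each run is the 250 bases before the start that RefSeq annotates, read 5′ to 3′ on the gene's strand, from RefSeq (GRCm38.p6, the build of mm10), whose promoter table matched 6 of the 9 genes by symbol. The gene positions given further on are those of GENCODE M21, in which Igfbp5 begins further upstream, so that 19 bases of its window lie inside the GENCODE gene. Capitals mark matches, on either strand, to CTTTGAT or CTTTGAA, cores of the sites of TCF/LEF factors that carry the Wnt signal, to CCAAT, or to TATAAA.
Ascl2, chr7:142969265-142969514, minus strand: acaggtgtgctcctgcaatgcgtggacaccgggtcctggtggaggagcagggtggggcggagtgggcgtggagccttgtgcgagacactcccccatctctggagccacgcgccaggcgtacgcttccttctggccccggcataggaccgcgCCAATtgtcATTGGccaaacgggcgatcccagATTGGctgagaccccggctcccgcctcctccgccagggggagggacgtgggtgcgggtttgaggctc
Axin2, chr11:108920099-108920348, plus strand: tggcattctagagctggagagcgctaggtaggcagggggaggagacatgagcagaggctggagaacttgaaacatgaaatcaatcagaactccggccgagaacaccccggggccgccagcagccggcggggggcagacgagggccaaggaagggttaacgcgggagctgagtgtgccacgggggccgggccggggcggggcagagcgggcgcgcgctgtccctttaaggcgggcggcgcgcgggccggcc
Grem1, chr2:113758649-113758898, minus strand: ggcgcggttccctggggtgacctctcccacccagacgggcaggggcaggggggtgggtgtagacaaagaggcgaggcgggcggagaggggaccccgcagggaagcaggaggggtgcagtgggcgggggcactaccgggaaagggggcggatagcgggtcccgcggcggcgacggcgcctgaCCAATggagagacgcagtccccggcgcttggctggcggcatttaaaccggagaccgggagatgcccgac
Igfbp5, chr1:72874866-72875115, minus strand: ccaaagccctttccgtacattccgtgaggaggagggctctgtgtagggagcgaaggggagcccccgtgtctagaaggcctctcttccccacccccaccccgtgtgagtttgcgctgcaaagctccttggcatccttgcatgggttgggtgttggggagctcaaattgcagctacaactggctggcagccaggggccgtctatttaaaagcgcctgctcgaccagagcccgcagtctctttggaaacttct
Ascl2 holds 3 CCAAT matches, beginning 99, 90 and 67 bases before the start, and Grem1 holds 1, beginning 69 bases before it. Neither TCF/LEF core occurs in these 4 windows, which says only that those letters are not in them. Of 32851 windows of this length, 3.21% hold CTTTGAT, 4.46% CTTTGAA, 33.8% CCAAT and 12.4% TATAAA. The GC content was 67.6% for Ascl2, 69.2% for Axin2, 72.0% for Grem1 and 58.8% for Igfbp5, beside a median of 52.4% over all windows.

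Of the 3 epithelial genes, Ascl2 and Axin2 fell in DSS and Prom1 rose. Of the 9 genes together 7 were higher and 2 lower, beside 79.5% and 20.1% of all tested features, so the shares are those of the list as a whole. In all 9 the libraries of the groups did not overlap, as in 97.4% of all tested features. The median log2 change of the 7 rises was 1.24, against 1.05 over the 455 rises. In bulk tissue, fewer cells of a type and less RNA per cell cannot be told apart.

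Ascl2 encodes the transcription factor that sets the identity of intestinal stem cells. Its FPKM was 2.27, 3.92 and 5.35 in Control replicates 1, 2 and 3 and 0.88, 0.85 and 0.68 in DSS replicates 1, 2 and 3, the order in which libraries are given throughout. The mean fell from 3.85 ± 1.54 to 0.803 ± 0.108 FPKM (SD, n = 3 in each group, as throughout). That is 4.79-fold lower, with even the lowest Control library 2.58-fold above the highest DSS library. On the log2(FPKM + 1) scale, used for all tests, the change was −1.38 (SE 0.25, limma adjusted p = 0.00273). This scale understates changes of low genes, and with 0.1 added in place of 1 it was −2.05. Ascl2 was the lowest of the 9 genes in DSS and rested there on about 22, 23 and 21 fragments. For 22 fragments the exact Poisson 95% interval is 13.8 to 33.3, which covers counting error only. No difference among the 3 DSS libraries was detectable at this depth. In Control it rested on about 53, 106 and 141 fragments, and the intervals of Control replicates 1 (39.7 to 69.3) and 3 (119 to 166) do not overlap. Ascl2 (ENSMUSG00000009248) is a protein-coding gene on chromosome 7, from 142966829 to 142969264 on the minus strand (mm10).

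Axin2, a scaffold of the complex that degrades beta-catenin, is switched on by Wnt signalling and serves as its usual readout. It stood at 5.83, 8.48 and 9.87 FPKM in Control and at 3.24, 4.03 and 3.64 FPKM in DSS. Its mean fell from 8.06 ± 2.05 to 3.64 ± 0.395 FPKM, which is 2.22-fold lower (log2 change −0.94 with SE 0.25, limma adjusted p = 0.00607). The groups were apart by 1.45-fold between their nearest libraries, a narrower gap than that of Ascl2. Control replicate 1 was lowest and Control replicate 3 highest for both genes. The same held for Car4 (589, 743 and 852 FPKM), a carbonic anhydrase, and Slc26a3 (153, 208 and 233 FPKM), a chloride exchanger, of mature colonocytes. That order occurred in 55 of the 115 features that fell, or 47.8%. In DSS the order differed: Car4 (230, 72.9 and 369 FPKM) and Slc26a3 (90.0, 35.9 and 88.1 FPKM) were lowest in DSS replicate 2, where Axin2 had its highest DSS value. Axin2 (ENSMUSG00000000142) lies on chromosome 11, from 108920349 to 108950783 on the plus strand (mm10). The antisense gene Gm11670 shares 3.8% of its exon length, and whether counting used strand was not given in the sources used here. Reads from that shared stretch therefore cannot be assigned to one gene of the pair.

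Prom1 encodes prominin 1 (CD133), a membrane protein found on stem and progenitor cells of the crypt and also on other epithelial cells. It moved opposite to Ascl2 and Axin2. Control libraries held 17.9, 16.2 and 15.3 FPKM and DSS libraries 28.6, 52.5 and 36.6 FPKM. The mean rose from 16.5 ± 1.36 to 39.3 ± 12.2 FPKM, 2.39-fold (log2 change 1.17 with SE 0.32, limma adjusted p = 0.00714). Its Control libraries varied least of all 9 genes, with an SD of 8.30% of the mean, whereas its DSS libraries spread over 31.0%. Without the 2 libraries of conflicting description its change was 1.14 and no longer passed (limma adjusted p = 0.0516), the single call among the 9 lost there. An antisense gene, Gm16401, shares 5.9% of its exon length and stood at 0.10, 0.17 and 0.03 FPKM in Control and 0.31, 0.58 and 0.53 FPKM in DSS. Prom1 (ENSMUSG00000029086) spans chromosome 5 from 43993620 to 44102032 on the minus strand (mm10).

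**Figure D1:**
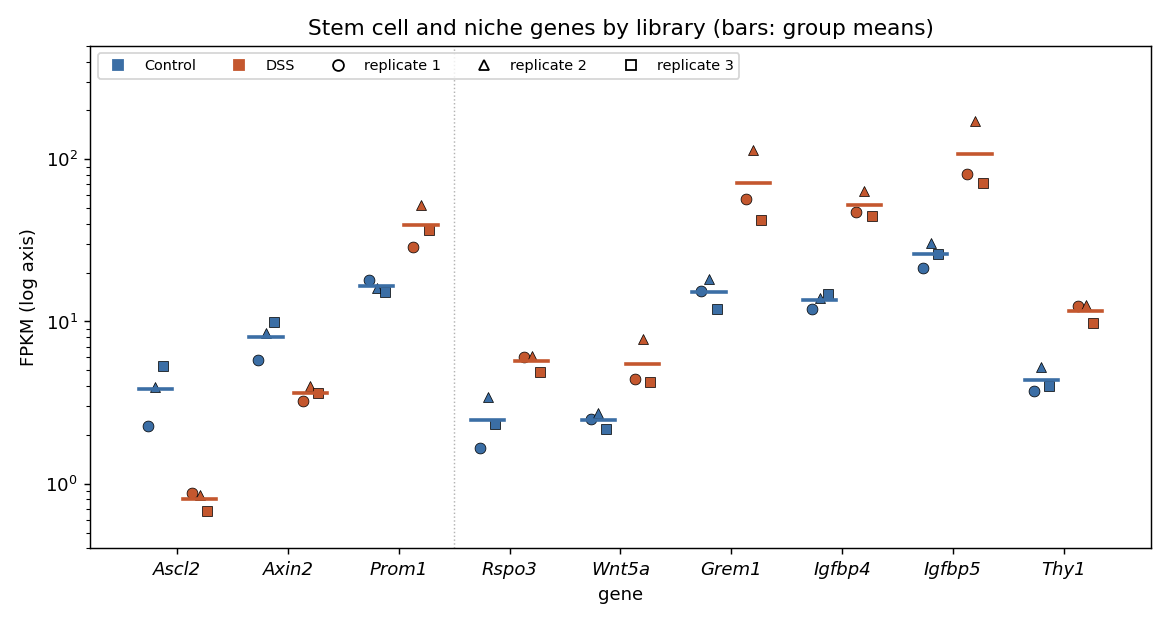
FPKM (log axis) of the 9 genes in the 3 Control and 3 DSS libraries, one symbol per library, with bars for the group means. The groups do not overlap for any of the 9, as for 97.4% of all tested features. Ascl2 and Axin2 lie lower in DSS and the other 7 higher. DSS replicate 2 is the highest DSS library for each of those 7, as for 64.6% of all rises.

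On the mesenchymal side both Wnt-pathway ligands rose by less than the median log2 change of all rises, 1.05. By size Rspo3 ranked 280 and Wnt5a 350 among the 455 rises. Rspo3, the R-spondin that binds LGR receptors and amplifies Wnt signals, held 1.66, 3.42 and 2.35 FPKM in Control and 6.03, 6.15 and 4.85 FPKM in DSS. Its mean rose 2.29-fold, from 2.48 ± 0.887 to 5.68 ± 0.718 FPKM (log2 change 0.97 with SE 0.24, limma adjusted p = 0.00514). The Control libraries spread more widely than the DSS libraries, with 74 to 176 fragments against 287 to 316. Rspo3 (ENSMUSG00000019880) lies on chromosome 10 from 29452416 to 29535867, and 13.1% of its exon length is shared with the antisense gene Gm48159. Wnt5a, a ligand of the branch of Wnt signalling that acts without beta-catenin, held 2.49, 2.72 and 2.18 FPKM in Control and 4.44, 7.77 and 4.21 FPKM in DSS. It rose 2.22-fold, from 2.46 ± 0.271 to 5.47 ± 1.99 FPKM (log2 change 0.86 with SE 0.25, limma adjusted p = 0.00849). Only DSS replicate 2 stood well above the rest, and without it the change was 0.62, still past the threshold. Wnt5a (ENSMUSG00000021994) lies on chromosome 14 from 28504750 to 28527448 (mm10), and the antisense gene Gm2670 shares 4.6% of its exon length.

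Gremlin and the IGF-binding proteins rose most. Grem1, which binds and blocks BMP ligands, held 15.5, 18.4 and 11.9 FPKM in Control and 57.0, 115 and 42.3 FPKM in DSS. Its mean rose 4.68-fold, from 15.3 ± 3.22 to 71.4 ± 38.4 FPKM (log2 change 2.05 with SE 0.41, limma adjusted p = 0.00318). By size it ranked 57 among the 455 rises. Its DSS libraries also spread most widely of the 9 genes, with an SD of 53.7% of the mean. Without DSS replicate 2, which was 2.31 times the mean of the other DSS libraries, the change was 1.64. Grem1 (ENSMUSG00000074934) lies on chromosome 2 from 113746164 to 113758646 on the minus strand (mm10).

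Igfbp5 encodes a secreted binding protein of insulin-like growth factors that mesenchymal cells release into the matrix. It was the most abundant of the 9 genes in each group, at 21.3, 30.7 and 26.0 FPKM in Control and 81.4, 172 and 71.9 FPKM in DSS. The mean rose 4.18-fold, from 26.0 ± 4.66 to 109 ± 55.5 FPKM (log2 change 1.92 with SE 0.40, limma adjusted p = 0.00342). Like Grem1 it was far higher in DSS replicate 2 than in the other DSS libraries. Igfbp4, a binding protein of the same family, held 11.9, 14.0 and 14.7 FPKM in Control and 47.62, 63.85 and 45.02 FPKM in DSS. Its rise was 3.85-fold, from 13.5 ± 1.45 to 52.2 ± 10.2 FPKM (log2 change 1.86 with SE 0.30, limma adjusted p = 0.00185). Igfbp4 had the widest gap between groups, 3.06-fold between the nearest libraries, and a smaller DSS spread (SD 19.6% of the mean) than Igfbp5 (51.2%). Igfbp5 (ENSMUSG00000026185) is on chromosome 1 from 72857932 to 72874884 and Igfbp4 (ENSMUSG00000017493) on chromosome 11 from 99041244 to 99054392 (mm10).

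Thy1 encodes a surface glycoprotein that marks fibroblasts and, in the mouse, T cells and neurons. It held 3.74, 5.27 and 3.99 FPKM in Control and 12.5, 12.6 and 9.76 FPKM in DSS. Thy1 rose 2.68-fold, its mean going from 4.33 ± 0.821 to 11.6 ± 1.60 FPKM (log2 change 1.24 with SE 0.24, limma adjusted p = 0.00315). The DSS libraries were close together, with replicates 1 and 2 nearly equal. Thy1 (ENSMUSG00000032011) lies on chromosome 9 from 44043384 to 44048579 (mm10).

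The DSS libraries differed from one another in the genes that rose. All 7 genes that rose had their highest value in DSS replicate 2, and so did 294 of the 455 rises (64.6%). The excess of that library over the mean of the other DSS libraries was 2.31-fold for Grem1, 2.25-fold for Igfbp5, 1.80-fold for Wnt5a, 1.61-fold for Prom1, 1.38-fold for Igfbp4 and 1.13-fold for both Rspo3 and Thy1. Over all rises its median was 1.30 (interquartile range 1.01 to 1.67). DSS replicate 3 was the lowest DSS library for 6 of the 7, Prom1 being the exception, and for 65.5% of all rises. Rspo3 and Thy1 were nearly level between DSS replicates 1 and 2, while Grem1 and Igfbp5 were not.

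Markers of other cells moved in these same libraries. Of 20 fibroblast markers 9 were listed, and all 9 rose and were highest in DSS replicate 2, beside 79.5% of all tested features that were higher and 64.6% of rises that were highest in that library. Summed over the 7 that are not among the 9 genes (Pdgfrb, Pdpn, Lum, Col1a1, Col1a2, Col3a1 and S100a4), they came to 130 to 157 FPKM in Control and to 351, 675 and 356 FPKM in DSS, 2.50, 4.81 and 2.54 times the Control mean. Grem1 at 3.73, 7.53 and 2.77 times and Igfbp5 at 3.13, 6.63 and 2.77 times its Control mean were likewise highest in replicate 2. Most of the fibroblast sum is collagen: in DSS replicate 2 Col3a1 held 310, Col1a1 107 and Col1a2 90.6 FPKM. Lum held 102, Pdpn 29.9, S100a4 18.6 and Pdgfrb 16.0 FPKM there. Group means rose 3.48- to 3.90-fold for the collagens and 2.20- to 2.84-fold for the other summed markers. Of 10 T cell markers 6 were listed (Cd3g, Cd4, Trac, Trbc2, Icos and Ctla4), and all 6 rose and had their highest value in DSS replicate 1, beside 28.6% of all rises. After centring 6 of the 9 fibroblast markers and 1 of the 6 T cell markers, Icos, still passed as higher, beside 19.8% of all tested features. Grem1 and Thy1, themselves among the 9 genes, are among those fibroblast markers, while Pdgfrb, Pdpn and S100a4 did not pass. The T cell sum was 10.5 to 16.9 FPKM in Control and 40.9, 29.1 and 29.6 FPKM in DSS. The 2 colonocyte markers fell, from 742 to 1086 FPKM summed in Control to 320, 109 and 457 FPKM in DSS. No listed fibroblast, T cell or colonocyte marker was at 0 in any of the 6 libraries, and the part of any of these cells in the changes of the 9 genes was not tested. The call of Trbc2 was lost without Control replicate 3 (log2 change 0.69, limma adjusted p = 0.0575), and without DSS replicate 2 the changes of Pdpn and Car4 shrank to 0.66 and −1.30.

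**Figure D2:**
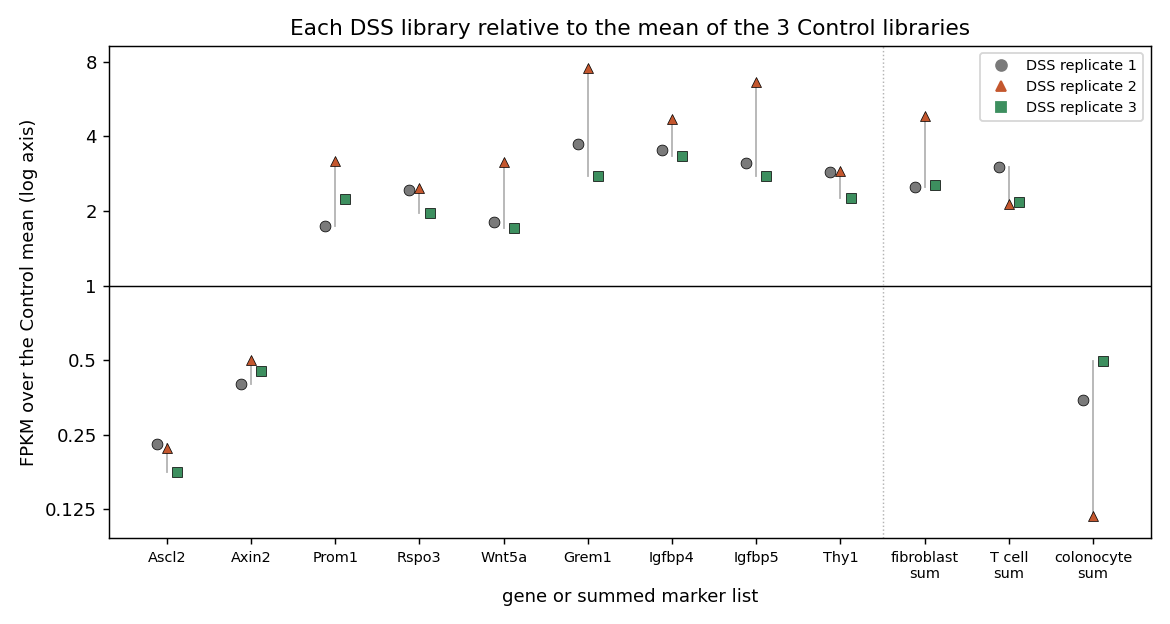
FPKM of each DSS library over the mean of the 3 Control libraries (log axis), for the 9 genes and for summed markers of fibroblasts (7 genes), T cells (6) and colonocytes (2). Collagen genes make up most of the fibroblast sum. DSS replicate 2 stands highest for Grem1 (7.53), Igfbp5 (6.63) and the fibroblast sum (4.81), whereas DSS replicate 1 is highest for the T cell sum (3.00) and DSS replicate 2 lowest for the colonocyte sum (0.117).

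FPKM is scaled per length, so levels can be ordered between genes. In Control, Igfbp5 stood above all others. Prom1 (mean 16.5), Grem1 (15.3) and Igfbp4 (13.5 FPKM) followed with overlapping neighbours, then Axin2 (8.06 FPKM), apart from its neighbours on either side. Thy1, Ascl2, Rspo3 and Wnt5a came last, each overlapping the next. In DSS the 4 most abundant were again Igfbp5, Grem1, Igfbp4 and Prom1, with neighbours overlapping. Thy1, the pair Rspo3 and Wnt5a, Axin2 and Ascl2 came next in separate steps. The ligands Rspo3 and Wnt5a thus lay below Axin2 in Control and above it in DSS.

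Ratios within a library do not depend on how libraries are scaled. Such ratios were formed for 11 pairs of genes chosen after their values were seen, and with 3 libraries against 3 a two-sided exact permutation test cannot go below 0.10. Rspo3 per Axin2 was 0.285, 0.403 and 0.238 in Control and 1.86, 1.53 and 1.33 in DSS. Grem1 per Axin2 went from 2.65, 2.17 and 1.21 to 17.6, 28.5 and 11.6, and Prom1 per Ascl2 from 7.90, 4.12 and 2.85 to 32.5, 61.8 and 53.9. For these pairs one gene rose and the other fell, so the direction of the ratio was set by the choice of pair. Axin2 per Ascl2, where both fell, was 2.57, 2.16 and 1.84 in Control and 3.68, 4.74 and 5.35 in DSS, 2.09-fold higher without overlap: Ascl2 fell further than Axin2 in these libraries (exact permutation p = 0.10, adjusted p = 0.183 over the 11 pairs).

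Among genes that rose together, most ratios overlapped between the groups. Igfbp5 per Igfbp4 was 1.79, 2.19 and 1.77 in Control and 1.71, 2.70 and 1.60 in DSS (exact permutation p = 1.0). Grem1 per Col3a1, a collagen chain of fibroblasts, was 0.258, 0.281 and 0.214 against 0.3762, 0.3702 and 0.2502 (exact permutation p = 0.30). Thy1 overlapped both per Pdgfrb, a receptor of mesenchymal cells (0.648 to 0.818 in Control, 0.784 to 0.942 in DSS), and per Trac, the T cell receptor alpha constant gene (1.09 to 1.24 against 1.09 to 1.75). With 3 libraries a group these overlaps do not show that the genes moved alike. Wnt5a per Sfrp1, a secreted Wnt inhibitor, was lower in DSS without overlap, at 0.218, 0.229 and 0.197 against 0.149, 0.153 and 0.167 (exact permutation p = 0.10, adjusted p = 0.183). Rspo3 per Sfrp1 overlapped (0.146 to 0.287 against 0.121 to 0.203).

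**Figure D3:**
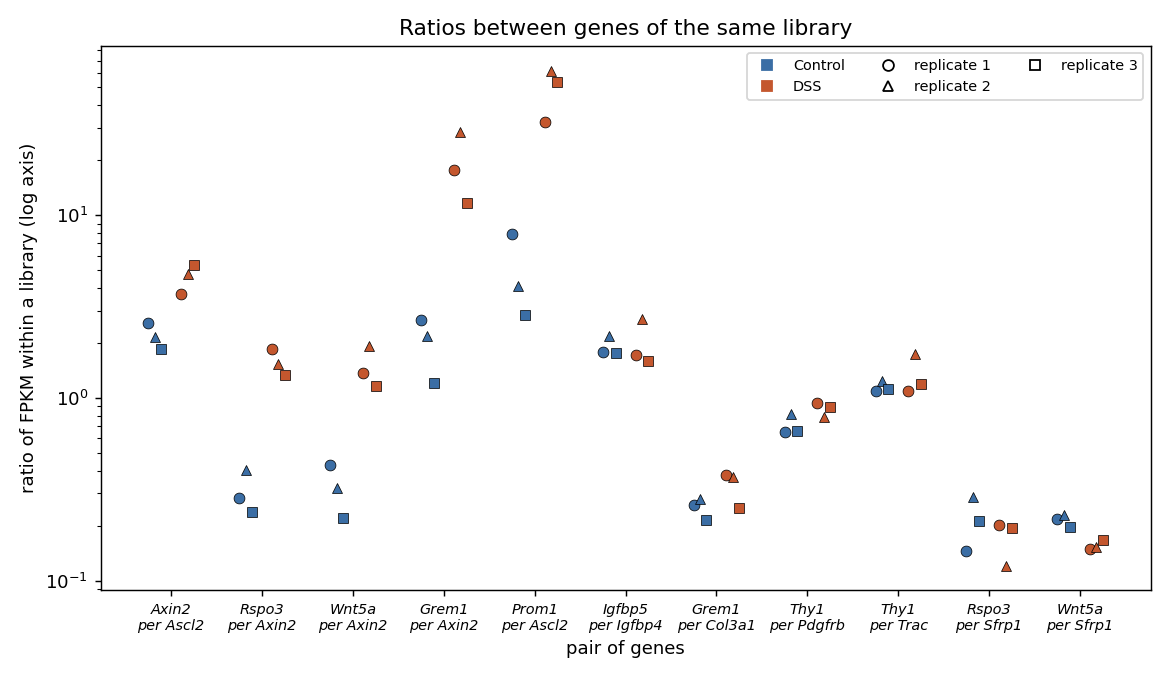
Ratio of FPKM between 2 genes of the same library (log axis) for 11 pairs, with Control and DSS libraries side by side. Ratios of a gene that rose to one that fell are apart, such as Grem1 per Axin2 (1.21 to 2.65 in Control, 11.6 to 28.5 in DSS), whereas Igfbp5 per Igfbp4 overlaps between the groups.

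The wider pathway was covered in small part. Of 21 crypt stem cell names 2 were listed, Ascl2 and Prom1, which moved in opposite directions. Of 16 names of Wnt target and feedback genes 2 were listed, Axin2 and Ascl2. Lgr5 and the other names on these lists had no values here, so their direction is not known. Fixed lists of stem cell, Wnt, BMP, IGF and repair genes hold 133 names, of which 22 were listed and 20 tested: 18 rose and 2 fell, the 2 being Ascl2 and Axin2. These counts stand in a list in which 79.5% of all tested features were higher and 99.7% passed the test. After centring 6 of the 20 tested genes passed as higher, beside 19.8% of all tested features. Apart from the 9 genes, 14 were listed and 12 tested, and all 12 rose. Their median log2 change was 1.18, beside 1.05 over the 455 rises and 0.96 over all tested features, falls included. Among 23 Wnt ligands and R-spondins, Wnt4 rose from 0.63, 0.94 and 0.87 FPKM to 1.48, 3.28 and 1.27 FPKM (log2 change 0.68, limma adjusted p = 0.0222). Its call was lost without Control replicate 1 (0.60, limma adjusted p = 0.0570), and without DSS replicate 2 the change was 0.39. Wnt2, below the filter, was at 0.12, 0.08 and 0.16 FPKM and at 0.72, 0.40 and 0.53 FPKM. No receptor on a list of 17 (Frizzled, LRP, ROR and LGR genes) was among the features.

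Secreted inhibitors of Wnt ligands were measured beside the ligands. Of 13 such genes 2 were listed and both rose, in a list where 79.5% of tested features were higher. After centring Sfrp1 alone passed, beside 19.8% of all tested features. Sfrp1, a decoy that binds Wnt proteins, held 11.4, 11.9 and 11.1 FPKM in Control and 29.8, 50.9 and 25.1 FPKM in DSS, a 3.08-fold rise (log2 change 1.48 with SE 0.33, limma adjusted p = 0.00399). Sfrp2, of the same family, went from 1.78, 2.87 and 2.29 FPKM to 6.69, 5.61 and 5.57 FPKM (log2 change 1.08, limma adjusted p = 0.00316). Sfrp1 was thus more abundant than Rspo3 or Wnt5a in every library of both groups.

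Of 19 genes on the BMP list 6 were listed and 5 tested, and these 5 rose, beside 79.5% of all tested features. After centring Grem1 alone of the 5 passed, beside 19.8% of all tested features. Besides Grem1 they were Chrdl2, a chordin-like BMP antagonist (0.463 ± 0.336 to 2.75 ± 1.83 FPKM, log2 change 1.27), Fstl1, a secreted follistatin-like protein (15.7 ± 2.53 to 39.1 ± 13.4 FPKM, 1.22), Inhba, the activin A subunit (0.553 ± 0.155 to 2.33 ± 1.37 FPKM, 1.03), and Bmp1 (2.77 ± 0.0252 to 6.23 ± 1.38 FPKM, 0.92). Bmp1 is a protease that matures procollagen and cleaves chordin, not a ligand of BMP receptors. Each of the 5 was highest in DSS replicate 2. Bmper stayed below the filter, at 0.26 to 0.41 FPKM in Control and 0.54 to 1.44 FPKM in DSS.

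Of 14 genes of the IGF axis 5 were listed and all 5 rose, beside 79.5% of all tested features. After centring Igfbp4 and Igfbp5 passed and the other 3 did not, beside 19.8% of all tested features that passed as higher. With Igfbp4 and Igfbp5 these were Igfbp7, an IGF-binding protein-related factor of stroma and vessels (62.5 ± 9.30 to 150 ± 27.0 FPKM, log2 change 1.24), Igf1, the growth factor itself (1.72 ± 0.419 to 5.23 ± 2.64 FPKM, 1.13), and Pappa, the protease that cleaves IGFBP4 and so frees IGF (0.750 ± 0.0700 to 2.16 ± 1.29 FPKM, 0.78). All 5 were highest in DSS replicate 2, and without it the change of Pappa was 0.47, still past the threshold. Limma adjusted p-values of the 12 genes outside the 9 lay at or below 0.0222.

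Most listed features rose, so the choice of scale matters. Subtracting from each library its own median log2 value over the 912 features lowered every log2 change by 0.65, and then 113 features were higher (19.8%) and 117 lower (20.5%). Of the 9 genes, 4 stayed higher: Grem1 (1.40), Igfbp5 (1.28), Igfbp4 (1.21) and Thy1 (0.60). Prom1 (0.52, limma adjusted p = 0.141), Rspo3 (0.32, 0.190) and Wnt5a (0.22, 0.316) remained positive and did not pass. Ascl2 (−2.02) and Axin2 (−1.59) were lower with and without centring, which had to follow, since the subtraction deepens every fall. The median subtracted is that of features selected for a difference between the groups. Centring therefore cannot tell a difference in scale from the selected rises themselves. Of the other pathway genes Sfrp1 (0.83), Anxa8 (1.41) and Plet1 (3.55) passed after centring. No direction among the 9 genes flipped.

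**Figure D4:**
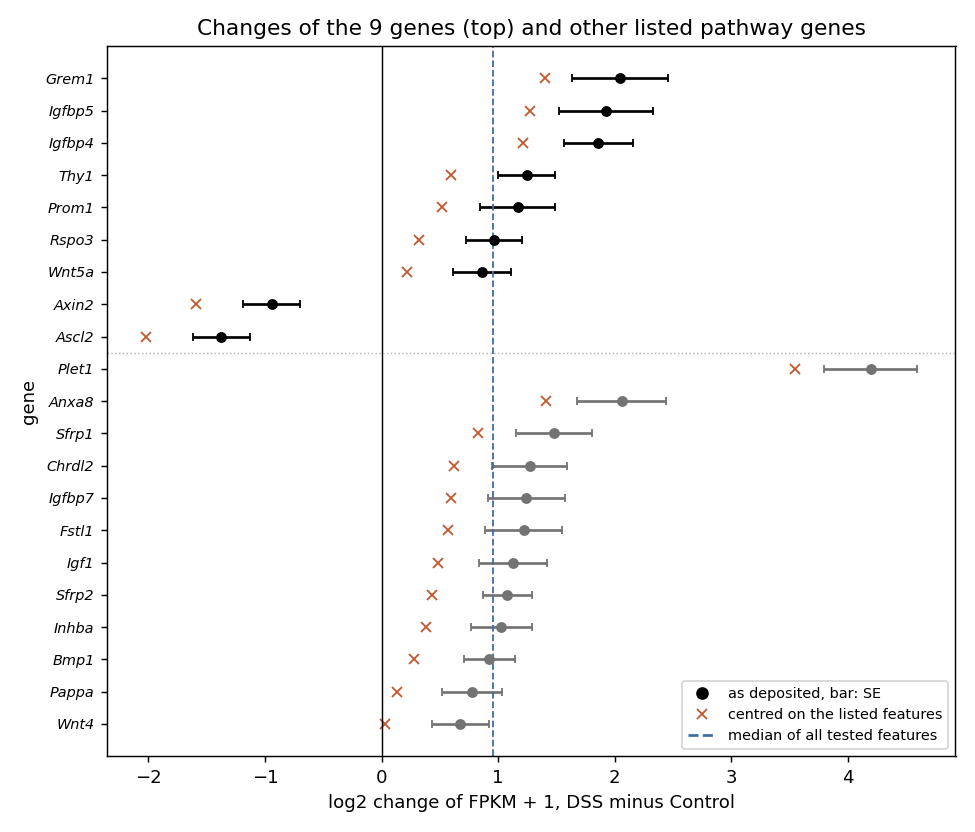
Log2 change of FPKM + 1, DSS minus Control, with its SE, for the 9 genes (top) and the 12 other tested pathway genes (bottom). Crosses give the change after centring on the listed features, and the dashed line is the median of all tested features (0.96); Grem1, Igfbp5 and Igfbp4 lie to the right of it, Rspo3 and Wnt5a near it, and Axin2 and Ascl2 on the negative side.

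The 9 profiles fell into a few shapes. As a measure of likeness, the root mean square difference of log2(FPKM + 1) over the 6 libraries was used, each gene taken relative to its Control mean. Grem1 and Igfbp5 differed by 0.21, Rspo3 and Thy1 by 0.22, Prom1 and Wnt5a by 0.25, and Igfbp4 and Igfbp5 by 0.26. Ascl2 and Axin2 differed by 0.33, and Ascl2 and Grem1, the most unlike pair, by 2.48.

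Among all 572 tested features, the 2 most like each gene by this measure, which is a description of these 6 libraries, were as follows. Thy1 was nearest to Sod3 (0.048), whose FPKM was 3.61, 4.93 and 3.86 in Control and 11.2, 11.7 and 9.19 in DSS, and then to the unnamed feature ENSMUSG00000120321 (0.080). Wnt5a was nearest to Chst11 (0.064) and Sh3pxd2b (0.074), and Prom1 to Col15a1 (0.083) and Col6a4 (0.11). Rspo3 was nearest to Lcp2 (0.097) and AB124611 (0.098). Grem1 had no feature closer than Col18a1 (0.19) and Mmp3 (0.19), while Igfbp5 was near Lox (0.12) and Marcksl1 (0.15), and Igfbp4 near Mfap4 (0.11) and Col1a2 (0.23). Axin2 was nearest to Apob (0.083) and Pdp2 (0.094), and Ascl2 to Saa1 (0.17) and Mettl7a2 (0.18). Saa1 was far more abundant (284 to 577 FPKM in Control, 150 to 205 in DSS), and its lowest DSS library was replicate 2, not replicate 3 as for Ascl2. Adding 1 before the log shrinks the changes of low genes. The 4.79-fold fall of Ascl2 thus lies near the smaller fold of Saa1, and likeness here need not mean an equal fold.

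Without Control replicate 3 and DSS replicate 3, whose description text names another group, the changes were −1.10 for Ascl2, −0.80 for Axin2, 1.05 for Rspo3, 0.94 for Wnt5a, 2.20 for Grem1, 2.01 for Igfbp4, 2.17 for Igfbp5 and 1.31 for Thy1. These 8 passed (limma adjusted p from 0.0153 to 0.0447), with 2 libraries left in each group. Groups were also taken from the description text. DSS replicate 3 then drops out, and Control replicate 3 joins DSS replicates 1 and 2 against Control replicates 1 and 2. None of the 9 passed and all 9 kept their direction. The changes ran from −0.52 (Ascl2) to 1.45 (Igfbp5), each with limma adjusted p of 0.610 or more. Which label is right was not tested.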

How the data were processed

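Colon RNA was extracted with TRIzol and sequenced from NEBNext Ultra libraries, per the labels' protocols. Reads were handled with bcl2fastq, FastQC and fastp (no versions named) and the build mm10, per the submitters' processing notes. Aligner, counter, strand setting and the selection rule of the features: not given in the sources used here. Deposited by the authors were FPKM values with 2 decimals, per the file headers; a gene that takes many fragments lowers all others in this unit.

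Names came from GENCODE M21 and exon lengths from its gene models. Library totals from 5 to 30 times 1000000 were scanned for the one giving whole fragments, to the precision of the file and at most 0.2, in genes with under 1200 bases of exons, which held for 86.7 to 93.9% of 72 to 105 genes. For Control replicate 1 the double of the chosen total, 28.8 times 1000000, gave 97.0%, and the lower total was kept. Fragment numbers rest on these totals.

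The test was limma 3.58.1 (R 4.3.3, trended spread) on log2(FPKM + 1) for the 6 libraries grouped by title, with features at 1 FPKM or more in at least 3 of them. P-values are two-sided and were adjusted by Benjamini and Hochberg's method over 572 features. The fit was tested on simulated data in which only part of the features changed. That setting does not copy the selection of features here, so it does not bear on the calls in this list. The count-based test that the design provided for was not run, since the files hold FPKM. The 9 genes and the gene lists were chosen with earlier results of these data known. Named are the 9 genes, listed members of the lists, and the 2 features most like each of the 9; the marker lists of smooth muscle, enteric neurons and glia, and proliferation had no member among the features. Alternatives changed the pseudocount, filter, centring, prior, libraries in the fit and groups, left out each library, or added a replicate block.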

Additional observations from a re-analysis of the deposited data

How the results depend on the processing

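All 9 genes kept their direction under every alternative run, and of 132 values 119 kept their side of the threshold. Since the groups by title did not overlap for any of the 9, leaving out libraries could not have reversed a direction. Leaving out each library in turn kept 7 rises and 2 falls among the 9 genes, 17 to 18 rises among the pathway genes, and 445 to 454 rises and 88 to 111 falls over all features. Without a filter on low values 714 features were higher, and with a mean of at least 5 FPKM 184 were higher and 62 lower, because other numbers of features were tested (912 and 249). That filter removed Ascl2, Rspo3 and Wnt5a and left 1 of the 2 falls. Centring left 113 rises over all features, 4 among the 9 genes and 6 among the pathway genes, since it lowers every change. Groups from the description text left 3 rises and 4 falls over all features (42 at an unadjusted p under 0.05), and 0 rises and 0 falls among the 9 genes (limma, 0 also at an unadjusted p under 0.05). Replicate numbers were not taken as pairs, since no label states that a number marks a shared animal, batch or day. Same-numbered Control and DSS libraries did not deviate together (r across features −0.051, 0.022 and 0.080). With a replicate block 455 features were higher and 112 lower, and 7 and 2 of the 9 genes. Depth limits Ascl2 in DSS, at 21 to 23 fragments a library.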

Other observations

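Of 14 genes of the repair epithelium that covers the injured surface 2 were listed, and both rose, beside 79.5% of all tested features (limma, log2 change 4.19 for Plet1 and 2.06 for Anxa8). Plet1 stood at 3.57, 1.02 and 1.68 FPKM in Control and at 36.2, 48.4 and 81.5 FPKM in DSS, highest in DSS replicate 3, where 6 of the 7 stem cell and niche genes that rose had their lowest DSS value. Anxa8 stood at 37.7, 28.8 and 18.3 FPKM in Control and at 95.2, 157 and 104 FPKM in DSS. The endothelial gene Cldn5, 1 of 8 on its list, was at 1.67, 2.84 and 2.13 FPKM and at 7.24, 3.69 and 4.35 FPKM, highest in DSS replicate 1. Lep, 1 of 5 adipose genes and below the filter, was at 0.35, 0.25 and 0.51 FPKM in Control and at 0.04, 0.20 and 0 FPKM in DSS.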
